A study of Mus musculus with 24 samples.

Results

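The subject is 9 genes of interferon signalling, taken as the rows of the count matrix whose Ensembl identifiers map to Ifnar1, Ifnar2, Ifngr2, Il10rb, Mx1, Mx2, Ifngr1, Jak1 and Tyk2. All 9 were found among the 55385 genes of the matrix. Ifnar1, Ifnar2, Ifngr2, Il10rb, Mx1 and Mx2 lie in the segment of Mmu16 that is present in 3 copies in Ts65Dn mice, whereas Ifngr1, Jak1 and Tyk2 lie elsewhere and remain at 2 copies. Ts65Dn is a mouse model of Down syndrome that carries a minichromosome, in which the distal part of Mmu16, homologous to human chromosome 21, is joined to the centromeric part of Mmu17, so that genes of the Mmu17 Scaf8-Pde10a interval are triplicated too. RNA-Seq was done on the hippocampus (HIP) and the entorhinal cortex (EC) of 6 male Ts65Dn mice and 6 male wild-type (wt) littermates aged 5 to 6 months, all on an F1B6C3B background, which gave 24 libraries. The wt littermates lack the minichromosome, and the labels name no treatment for either genotype. Both regions are pieces of whole tissue, in which fewer cells of a type and less RNA per cell cannot be told apart.

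Interferons are cytokines that cells release on meeting viruses, and they act on neighbouring cells through paired receptor chains on the surface. IFNAR1 and IFNAR2 form the receptor of the type I interferons, IFNGR1 and IFNGR2 that of interferon gamma, and IL10RB is the shared second chain of the receptors for interleukin 10, interleukin 22 and the interferons lambda. The kinases TYK2 and JAK1 are bound to the inner ends of most of these chains, while IFNGR2 brings in the kinase JAK2. The kinases phosphorylate STAT transcription factors, which switch on interferon-induced genes such as Mx1 and Mx2, dynamin-like GTPases that block viruses. In the brain, microglia, astrocytes, endothelial cells and neurons can all respond to interferons.

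The 4 receptor genes of Mmu16 stand side by side on the plus strand. In GRCm38 (GENCODE M21), Ifnar2 (ENSMUSG00000022971) is at chr16:91372783-91405589, Il10rb (ENSMUSG00000022969) at chr16:91406164-91425834, Ifnar1 (ENSMUSG00000022967) at chr16:91485238-91507441 and Ifngr2 (ENSMUSG00000022965) at chr16:91547072-91565623. Mx1 (ENSMUSG00000000386, chr16:97447035-97462907, minus strand) and Mx2 (ENSMUSG00000023341, chr16:97535308-97560900, plus strand) are further along the segment. GENCODE annotates Mx1 as protein-coding and Mx2 as a polymorphic pseudogene, whereas the paper lists both as polymorphic pseudogenes. The members outside the segment are Ifngr1 (ENSMUSG00000020009, chr10:19591949-19610229, plus strand), Jak1 (ENSMUSG00000028530, chr4:101152367-101265282, minus strand) and Tyk2 (ENSMUSG00000032175, chr9:21104068-21131243, minus strand). The gene Gm21970 overlaps both Ifnar2 and Il10rb on the same strand and had 0 counts in all libraries, so reads on shared exons may have been left uncounted in both genotypes. Jak1 overlaps Gm12785 on its own strand and Raver2 on the other, and Tyk2 overlaps 1700084C06Rik on the other strand.

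RefSeq (GRCm38.p6) gave a promoter sequence for 6 of the 9 members, Ifnar1, Ifnar2, Ifngr2, Ifngr1, Jak1 and Tyk2. The 250 bases before the start are shown for the 3 triplicated receptor genes among them and for Ifngr1, since Ifngr2 and Ifngr1 encode the chains of 1 receptor and only Ifngr2 is triplicated. All 4 are on the plus strand, at chr16:91484965-91485214 for Ifnar1, chr16:91372533-91372782 for Ifnar2, chr16:91546809-91547058 for Ifngr2 and chr10:19591699-19591948 for Ifngr1, and are written 5′ to 3′ in lower case. Capitals mark matches, on either strand, to the interferon-stimulated response element (ISRE, GAAA, any 2 bases, GAAA), the interferon gamma-activated site (GAS, TTCNNNGAA) or the GC box (GGGCGG), and overlapping GC boxes run together.
Ifnar1: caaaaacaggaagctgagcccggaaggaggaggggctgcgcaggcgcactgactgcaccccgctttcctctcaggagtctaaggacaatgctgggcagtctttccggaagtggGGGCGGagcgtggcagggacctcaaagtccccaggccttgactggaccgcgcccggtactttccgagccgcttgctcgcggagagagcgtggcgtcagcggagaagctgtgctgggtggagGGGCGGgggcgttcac
Ifnar2: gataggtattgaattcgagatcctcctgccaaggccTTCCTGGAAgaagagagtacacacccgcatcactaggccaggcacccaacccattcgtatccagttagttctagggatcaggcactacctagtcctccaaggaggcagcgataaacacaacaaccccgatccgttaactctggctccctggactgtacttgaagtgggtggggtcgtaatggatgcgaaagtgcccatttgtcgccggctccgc
Ifngr2: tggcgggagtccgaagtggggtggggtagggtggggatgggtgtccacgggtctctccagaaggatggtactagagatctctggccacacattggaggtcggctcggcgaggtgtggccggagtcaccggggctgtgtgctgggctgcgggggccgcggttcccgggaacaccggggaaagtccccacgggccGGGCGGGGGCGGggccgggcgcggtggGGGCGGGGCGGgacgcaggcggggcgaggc
Ifngr1: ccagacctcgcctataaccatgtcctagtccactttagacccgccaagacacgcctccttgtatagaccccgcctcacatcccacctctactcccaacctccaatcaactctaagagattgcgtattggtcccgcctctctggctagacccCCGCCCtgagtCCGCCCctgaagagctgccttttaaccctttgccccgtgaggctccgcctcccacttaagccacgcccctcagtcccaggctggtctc

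The promoter windows differed in these motifs. An ISRE was found in 0 of the 6 windows, and in 2.98% of the 32851 promoters in the table. A GAS was found only in that of Ifnar2, 1 of the 6, against 7.02% of all promoters. GC boxes were found in 5 of the 6 windows, all but Ifnar2, against 32.7% of all promoters, and Ifngr2 had the most, with 4. The G and C content was 74.0% for Ifngr2, 65.6% for Ifnar1, 59.2% for Ifngr1 and 54.0% for Ifnar2, against a median of 52.4% over all promoters. These matches describe the letters of the windows and not the binding of a factor.

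Libraries held 24482366 to 40476492 counts on genes for the wt HIP, 23128589 to 33052023 for the Ts65Dn HIP, 24904755 to 38299186 for the wt EC and 24965888 to 37209160 for the Ts65Dn EC. Levels are given as CPM, the counts scaled to a common library size of 1e6 by the TMM method over all libraries, and as CPM per kilobase of exon (FPKM) where genes are compared with each other. The regional labels were checked with marker genes. The summed level of 6 hippocampal markers was 957 ± 66.3 CPM in the wt HIP and 119 ± 14.001 CPM in the wt EC (SD, n = 6), and that of 6 cortical markers was 175 ± 33.6 CPM and 630 ± 56.6 CPM.

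One mouse went against its label. The library labelled Ts65Dn replicate 3 was close to wt for the 3-copy genes, in the EC as well as the HIP. Over the other tested protein-coding genes of the Mmu16 segment, its median level was 1.02 times the wt mean in the HIP (75 genes) and 1.01 times in the EC (73 genes). The other 5 Ts65Dn libraries had HIP medians of 1.43 to 1.53 and EC medians of 1.46 to 1.51, and the wt libraries 0.978 to 1.01 and 0.985 to 1.02. The label was kept, and the tests of the members and of their ratios are given with this mouse and without it. This mouse was set apart by the levels of 3-copy genes. For the triplicated members, the p-values, intervals and separation of groups given without it therefore depend on that choice.

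Ifnar1 encodes the signalling chain of the type I interferon receptor. In the wt HIP its level was 38.5 CPM at the lowest, 43.8 CPM at the median and 45.9 CPM at the highest, and the Ts65Dn HIP libraries had 65.6, 67.5, 43.7, 65.0, 66.3 and 63.96 CPM for replicates 1 to 6. Replicate 3 lay among the wt libraries, while the other 5 lay above all of them. The EC gave 43.0, 46.6 and 49.4 CPM as the lowest, median and highest wt values and 73.4, 70.9, 47.3, 68.2, 72.7 and 69.7 CPM in Ts65Dn replicates 1 to 6, with the same library among the wt values. Ifnar1 rose by 1.43-fold in the HIP (95% interval 1.25 to 1.64, adjusted p = 0.0218) and by 1.43-fold in the EC (1.25 to 1.65, adjusted p = 0.0136), in edgeR's quasi-likelihood test with 6 against 6 mice. Without replicate 3 the folds were 1.51 (1.41 to 1.62, adjusted p = 1.26e-05) and 1.52 (1.41 to 1.64, adjusted p = 1.93e-05).

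Ifnar2 encodes the chain that binds type I interferons with high affinity. Its lowest, median and highest levels were 12.1, 12.5 and 14.5 CPM in the wt HIP, and Ts65Dn replicates 1 to 6 had 20.4, 20.2, 15.5, 18.9, 20.2 and 22.8 CPM. It was the only member whose 6 Ts65Dn libraries all lay above the 6 wt libraries in the HIP, as did 0.68% of all tested genes. No member did so for the EC, where 1.27% of genes did. In the EC the wt values were 11.3, 12.9 and 13.8 CPM, and the Ts65Dn values were 19.4, 17.3, 13.03, 20.5, 19.6 and 19.5 CPM, of which replicate 3 lay within the wt range. The difference was 1.52-fold in the HIP (1.34 to 1.72, adjusted p = 0.00577) and 1.43-fold in the EC (1.22 to 1.67, adjusted p = 0.0229). Without replicate 3 it was 1.58-fold (adjusted p = 0.000131) and 1.51-fold (adjusted p = 0.000681).

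Ifngr2 encodes the chain of the interferon gamma receptor that brings in the kinase JAK2. The wt HIP had 50.8 CPM at the lowest, 52.1 CPM at the median and 57.3 CPM at the highest, and Ts65Dn replicates 1 to 6 had 83.9, 81.0, 50.2, 102.1, 89.5 and 96.8 CPM. Replicate 3 was lower than every wt library, and the other 5 were higher than every wt library. The wt EC had 35.0, 39.8 and 45.4 CPM, and the Ts65Dn EC had 66.5, 65.4, 44.8, 82.3, 74.0 and 63.7 CPM, with replicate 3 near the top of the wt range. Ifngr2 rose by 1.58-fold in the HIP (1.31 to 1.90, adjusted p = 0.0282) and by 1.65-fold in the EC (1.40 to 1.96, adjusted p = 0.00752). Without replicate 3 the folds were 1.70 (1.55 to 1.87, adjusted p = 1.34e-05) and 1.76 (1.57 to 1.98, adjusted p = 5.43e-05). These intervals lay above 1.5, the ratio of 3 copies to 2, but they depend on leaving out a mouse set apart by its 3-copy genes.

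Il10rb encodes the chain that the receptors of interleukin 10, interleukin 22 and the interferons lambda share. Its wt HIP values were 6.84, 8.005 and 9.89 CPM at the lowest, median and highest, against 14.5, 14.8, 9.87, 11.8, 12.8 and 11.9 CPM in Ts65Dn replicates 1 to 6. Replicate 3 lay just under the highest wt library, and the other 5 lay above it. In the EC the values were 6.35, 7.86 and 8.79 CPM in wt and 12.7, 11.01, 7.74, 10.8, 10.2 and 9.83 CPM in Ts65Dn, where replicate 3 lay within the wt range and the other 5 lay above it. Il10rb rose by 1.52-fold in the HIP (1.29 to 1.79, adjusted p = 0.0219). The EC difference of 1.34-fold (1.13 to 1.58, adjusted p = 0.0624) did not pass the threshold in edgeR, and it passed with DESeq2 (adjusted p = 0.00977) and without replicate 3 (1.41-fold, adjusted p = 0.0169).

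**Figure D1:**
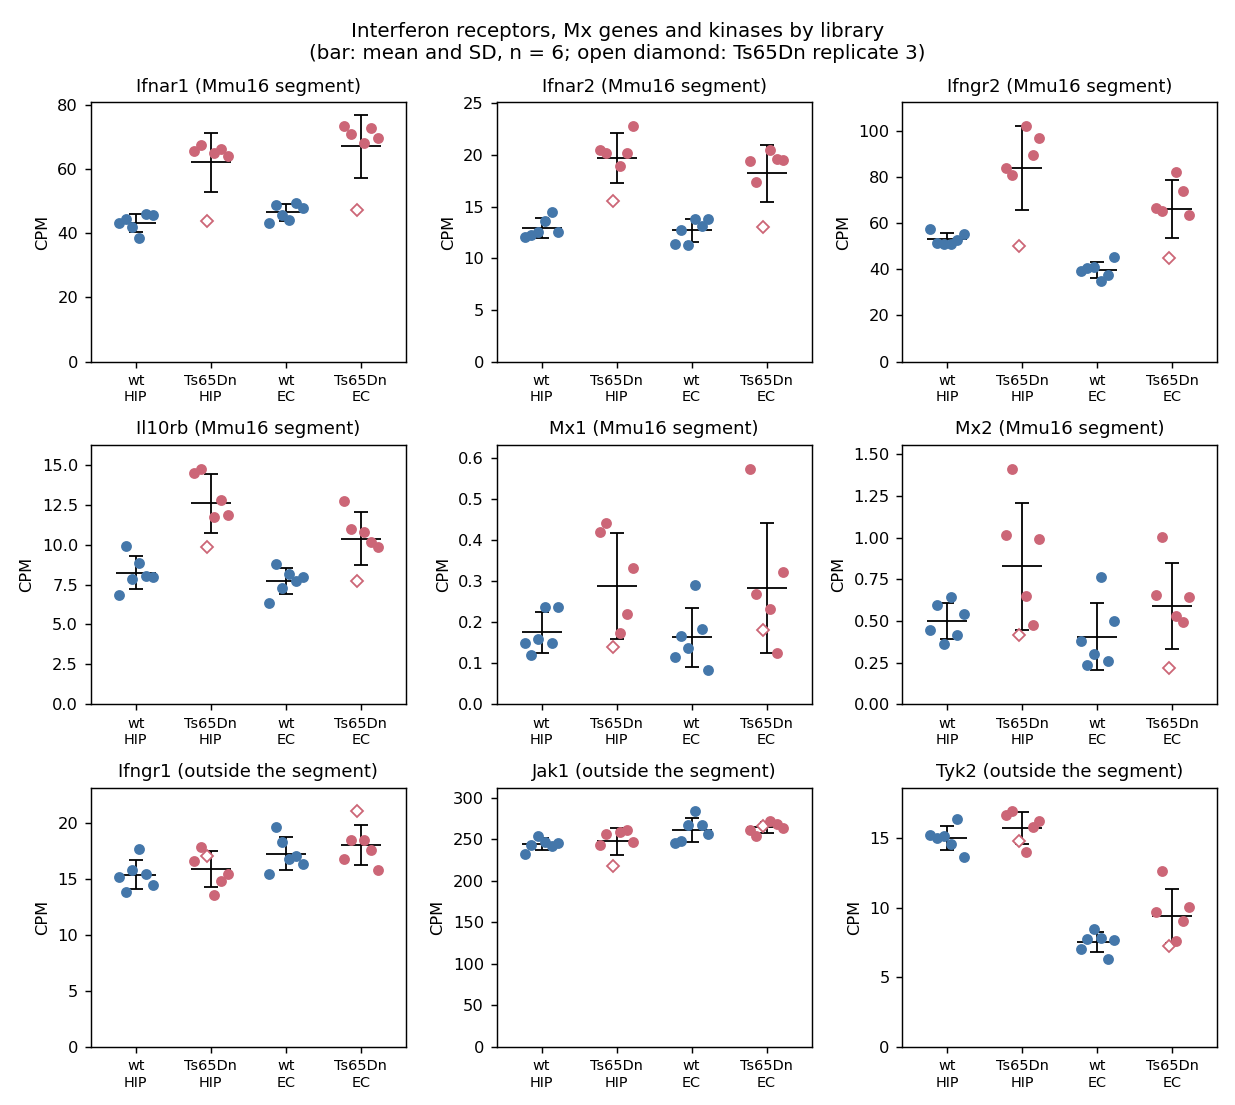
Level of each of the 9 genes in CPM (y axis, from 0) by genotype and region (x axis), with 1 point per library and the mean and SD of 6 libraries as bars. In the panels of Ifnar1, Ifnar2, Ifngr2 and Il10rb the Ts65Dn points lie above the wt points except the open diamond, the library labelled Ts65Dn replicate 3, which lies above them only for Ifnar2 in the HIP, whereas those of Ifngr1 and Jak1 overlap and Tyk2 is lower in the EC than in the HIP.

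The Mx genes, which interferons induce, were close to the detection limit. Mx1 had 4 to 7 counts per library in the wt HIP and 12, 15, 4, 4, 6 and 10 counts in Ts65Dn HIP replicates 1 to 6. In the EC it had 2 to 8 counts in wt and 21, 8, 5, 7, 3 and 10 counts in Ts65Dn. Its mean level was 0.175 ± 0.0497 CPM in the wt HIP, 0.287 ± 0.129 CPM in the Ts65Dn HIP, 0.163 ± 0.0723 CPM in the wt EC and 0.283 ± 0.158 CPM in the Ts65Dn EC (SD, n = 6), and the groups overlapped in both regions. Mx1 was removed by the filter on low counts and was not tested, and a fit of all genes with a count gave adjusted p = 0.558 in the HIP and 0.447 in the EC (edgeR).

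Mx2 had 9 to 25 counts in the wt HIP, and 29, 48, 12, 15, 13 and 30 counts in Ts65Dn replicates 1 to 6. The EC had 7 to 21 counts in wt and 24, 30, 6, 16, 12 and 20 counts in Ts65Dn. Replicates 1, 2 and 6 were high in the HIP and the other 3 were near the wt libraries, so the groups overlapped. The fold was 1.65 in the HIP (1.06 to 2.56, adjusted p = 0.278) and 1.47 in the EC (0.873 to 2.47, adjusted p = 0.423), and without replicate 3 it was 1.81 (adjusted p = 0.135) and 1.65 (adjusted p = 0.229), none of which passed. Mx1 and Mx2 are close paralogues, so reads that match both may have been assigned to neither, and a difference of 1.5-fold was within the interval of Mx2 in both regions.

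The members outside the triplicated segment did not pass the test in either region. Ifngr1 encodes the ligand-binding chain of the interferon gamma receptor, and its levels overlapped between genotypes, at 13.8 to 17.6 CPM in wt and 13.5 to 17.8 CPM in Ts65Dn in the HIP, and 15.4 to 19.6 CPM and 15.8 to 21.02 CPM in the EC. Its folds were 1.03 in the HIP (0.918 to 1.16, adjusted p = 0.844) and 1.04 in the EC (0.925 to 1.16, adjusted p = 0.777). Jak1, the most abundant member, had 232 to 254 CPM in wt and 218 to 261 CPM in Ts65Dn in the HIP, and 246 to 284 CPM and 254 to 272 CPM in the EC. Its folds were 1.01 (0.945 to 1.08, adjusted p = 0.907) and 1.004 (0.942 to 1.07, adjusted p = 0.961). The intervals of Ifngr1 and Jak1 did not reach 1.5-fold in either region.

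Tyk2 encodes the kinase bound to IFNAR1. In the HIP it had 13.7 to 16.4 CPM in wt and 14.01 to 17.0 CPM in Ts65Dn, a fold of 1.05 (0.953 to 1.15, adjusted p = 0.677). In the EC the wt values were 7.04, 7.79, 8.47, 7.85, 6.34 and 7.69 CPM for replicates 1 to 6, and the Ts65Dn values 9.71, 12.6, 7.24, 7.63, 9.08 and 10.1 CPM. Ts65Dn replicates 1, 2, 5 and 6 lay above all wt libraries and replicates 3 and 4 lay among them. The EC fold was 1.24 (1.03 to 1.495, unadjusted p = 0.0271, adjusted p = 0.198 in edgeR), and 1.30 without replicate 3 (adjusted p = 0.104). Neither passed after correction over all genes tested, 17049 with all mice and 17229 without replicate 3.

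**Figure D2:**
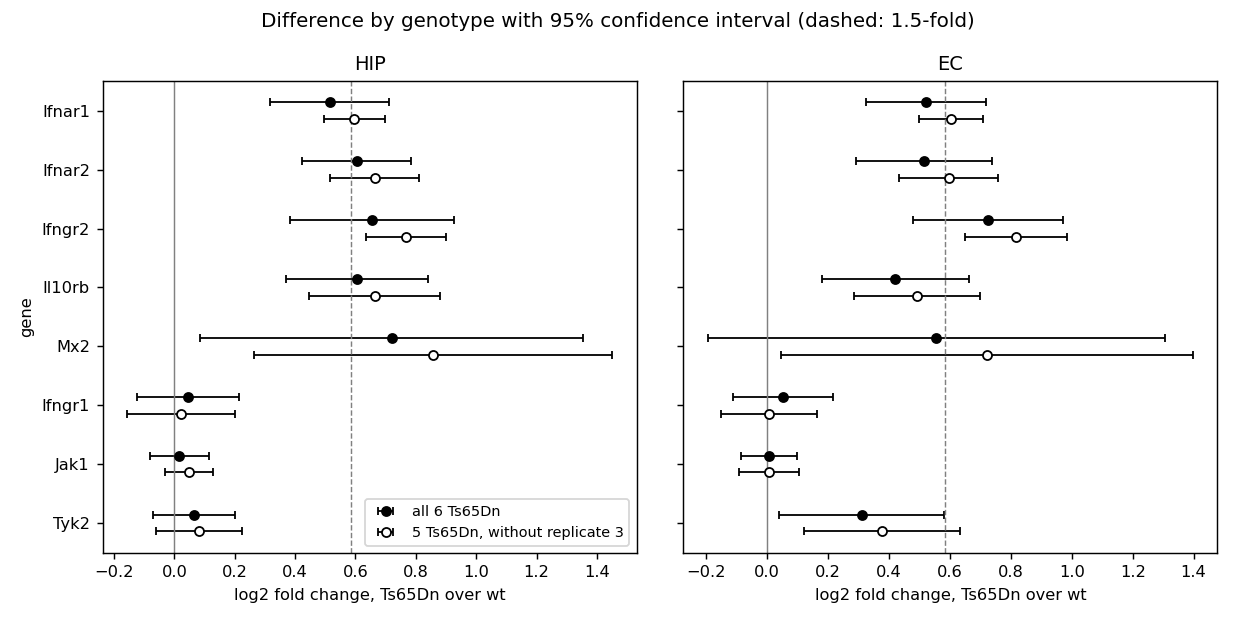
Log2 fold change of Ts65Dn over wt (x axis) with its 95% confidence interval for the 8 tested genes (y axis), from edgeR's quasi-likelihood test with all 6 Ts65Dn mice (filled) and without replicate 3 (open). With all 6 Ts65Dn mice, the intervals of the 4 triplicated receptor genes include the dashed line at 1.5-fold in both regions. Without replicate 3, which was set apart by its 3-copy genes, those of Ifngr2 lie above it. Ifngr1 and Jak1 lie at the line at 0, and the interval of Mx2 is the widest.

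Counted together, 4 of the 8 tested members rose in the HIP and 3 rose in the EC, all of them receptor genes of Mmu16, and none fell. Of all genes tested, 0.542% rose in the HIP and 1.15% in the EC. Without replicate 3 the count was 4 of 8 in each region, against 1.06% and 1.42% of all genes. Each mouse was left out in turn, which gave 12 fits per region. Ifnar2 was called in 12 fits in the HIP and 8 in the EC, Ifnar1 in 10 and 12, Ifngr2 in 4 and 12, and Il10rb in 8 and 1, and each of these folds stayed above 1 in every fit. The HIP call of Ifnar1 was lost without wt replicate 3 or Ts65Dn replicate 6 (adjusted p up to 0.0534), and that of Il10rb without wt replicate 3, 5 or 6 or Ts65Dn replicate 1 (up to 0.0558). Ifngr2 kept its HIP call only without wt replicate 1 or Ts65Dn replicate 2, 3 or 5, with an adjusted p of up to 0.0704 in the other fits. The EC call of Ifnar2 was lost without wt replicate 1 or 3 or Ts65Dn replicate 1 or 4 (up to 0.0606). The 5 Ts65Dn libraries other than replicate 3 all lay above the 6 wt libraries for the 4 receptor genes in both regions, as did 2.03% of the genes tested for the HIP and 2.31% of those tested for the EC. That separation follows in part from setting replicate 3 apart by its 3-copy genes.

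The interferon receptor genes were compared with the rest of the triplicated segment, from Mrpl39 to Zbtb21, which holds 128 other protein-coding genes. The HIP fit tested 75 of these, of which 38 rose, and the EC fit 73, of which 40 rose, and none fell. Their median fold was 1.41 in the HIP (quartiles 1.35 and 1.48) and 1.42 in the EC (1.33 and 1.47). Without replicate 3, 54 of 76 HIP genes and 56 of 74 EC genes rose, with median folds of 1.47 and 1.48. Ifngr2 had a larger fold than most of them, as only 9 of 75 segment genes (HIP) and 6 of 73 (EC) had a larger one. Ifnar1 was near the middle, with 30 above it in each region. Il10rb had 13 of 75 HIP genes and 50 of 73 EC genes above it, though its interaction of genotype and region did not pass (adjusted p = 0.9998), and Ifnar2 had 13 and 31 above it. Mx2 had 8 and 20 above it, with the wide interval given before.

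**Figure D3:**
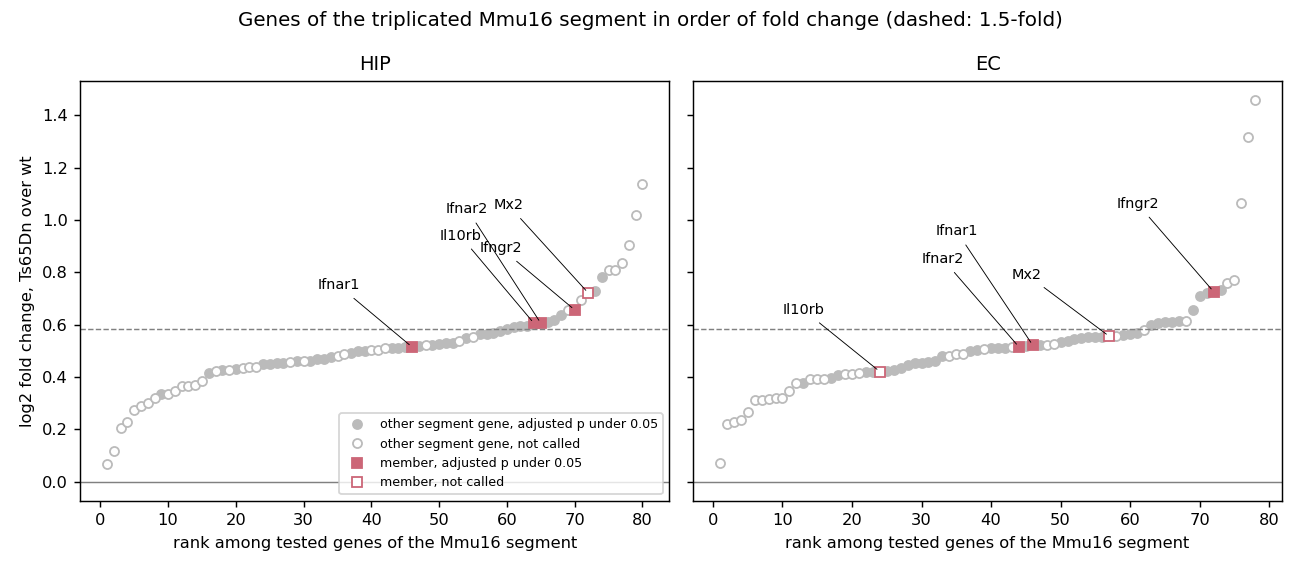
Log2 fold change of Ts65Dn over wt (y axis) of all tested genes of the Mmu16 segment, in order of size (x axis, rank), with the interferon genes as red squares and genes past an adjusted p of 0.05 filled. Ifngr2 is near the upper end in both regions, Ifnar1 is near the middle, and Il10rb is in the upper part in the HIP and the lower part in the EC, a difference between regions that did not pass its test (adjusted p = 0.9998).

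The genes next to the receptors had similar differences. Olig1 and Olig2, transcription factors of the oligodendrocyte lineage that precede Ifnar2, rose by 0.51 (SE 0.086, adjusted p = 0.0167) and 0.51 (SE 0.11, adjusted p = 0.0383) on the log2 scale in the HIP and by 0.54 (adjusted p = 0.00519) and 0.56 (adjusted p = 0.0068) in the EC. Tmem50b, which follows Ifngr2, rose by 0.59 in the HIP (adjusted p = 0.0218) and 0.51 in the EC (adjusted p = 0.0068). Dnajc28, the next gene, rose by 0.40 in the EC (adjusted p = 0.0389), while its HIP value of 0.37 did not pass (adjusted p = 0.104). Around the Mx genes, Dscam, a neuronal adhesion molecule, rose by 0.53 in the HIP (adjusted p = 0.0218) and 0.57 in the EC (adjusted p = 0.00978), whereas Bace2, a protease related to beta-secretase, had log2 fold changes of 0.90 (adjusted p = 0.102) and 0.49 (adjusted p = 0.141) that did not pass. Ripk4, a kinase of epithelial cells, also did not pass, at 1.14 (adjusted p = 0.128) and 1.46 (adjusted p = 0.0956), and Fam3b and Tmprss2, between and beside the Mx genes, were not tested.

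Likeness was measured as the mean absolute difference between log2 CPM profiles over all 24 libraries, each centred on its wt mean per region, among 16591 other genes tested in both regions. The closest genes to Ifnar1 were Scaf4 (0.071), Jam2 (0.0711) and App (0.0718), the gene of the amyloid precursor protein, against a median distance from Ifnar1 of 0.342 over all genes. Itsn1 (0.0902), Ifnar1 (0.0958) and Gart (0.0986) were closest to Ifnar2. Those closest to Ifngr2 were Zdhhc14 (0.0924), which is on Mmu17, Rcan1 (0.104) and Synj1 (0.105), and those closest to Il10rb were Ezr (0.096), also on Mmu17, Ifnar2 (0.121) and Psmg1 (0.124). Of the closest 10 genes, 9 were in the Mmu16 segment for Ifnar1 and Ifnar2 and 7 for Ifngr2 and Il10rb. The libraries and the 3-copy state are common to these genes, so the distances are a description.

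Per kilobase, the members were in nearly the same order in every group. In the wt HIP the order was Jak1 (33.8 ± 1.01 FPKM), Ifngr2 (14.1 ± 0.694), Ifnar1 (7.28 ± 0.472), Ifngr1 (5.39 ± 0.465), Ifnar2 (3.87 ± 0.284), Tyk2 (2.19 ± 0.128), Il10rb (2.17 ± 0.271), Mx2 (0.138 ± 0.0303) and Mx1 (0.0462 ± 0.0131 FPKM, SD, n = 6). Tyk2 and Il10rb overlapped there, and the other neighbours in this order did not. In the wt EC, Jak1 (36.1 ± 1.99 FPKM) and Ifngr2 (10.6 ± 0.929 FPKM) again led, Il10rb (2.03 ± 0.218 FPKM) was above Tyk2 (1.097 ± 0.108 FPKM) with no overlap, and Mx2 overlapped Mx1. In the Ts65Dn HIP, Ifnar2 (5.91 ± 0.724 FPKM) came before Ifngr1 (5.57 ± 0.552 FPKM), the reverse of their order in wt, though the libraries of the 2 genes overlapped, and Il10rb (3.31 FPKM) came before Tyk2 (2.29 FPKM) with no overlap. In the Ts65Dn EC, Ifngr1 (6.32 ± 0.635 FPKM) stayed before Ifnar2 (5.47 ± 0.826 FPKM), again with overlap.

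The balance between paired chains was measured as the log2 ratio of their counts within a library, with 0.5 added to each count, which removes the scaling of the library. Ifngr2 over Ifngr1 averaged 1.79 ± 0.16 in the wt HIP and 2.37 ± 0.47 in the Ts65Dn HIP, and 1.21 ± 0.17 and 1.86 ± 0.39 in the EC (SD, n = 6). The interferon gamma receptor chains thus differed in ratio by 1.497-fold in the HIP (two-sided exact permutation test, p = 0.0195, adjusted over 10 ratios p = 0.0325) and 1.57-fold in the EC (p = 0.0108, adjusted p = 0.0271, same exact test). Per kilobase, Ifngr2 was 2.62 times Ifngr1 in the wt HIP and 3.92 times in the Ts65Dn HIP, and 1.74 and 2.74 times in the EC. Without replicate 3, the 5 Ts65Dn mice did not overlap the 6 wt mice in either region, with folds of 1.68 and 1.75 (exact p = 0.00433 in each, the smallest that 5 against 6 mice can give). Replicate 3 was set apart by its 3-copy genes, so this p-value and those of the other ratios without it depend on that choice.

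The chains of the type I interferon receptor, which are both triplicated, kept closer ratios. Ifnar1 over Ifnar2 averaged 1.75 ± 0.14 in the wt HIP and 1.65 ± 0.13 in the Ts65Dn HIP on the log2 scale, and 1.87 ± 0.12 and 1.88 ± 0.098 in the EC, and the genotypes overlapped in both (exact permutation p = 0.232 and 0.939). Against their kinases, which are not triplicated, the ratios differed in part. Ifnar2 over Jak1 was higher in Ts65Dn by 1.499-fold in the HIP, where all 6 Ts65Dn libraries lay above all wt libraries (exact p = 0.00216, adjusted p = 0.0216), and by 1.41-fold in the EC (exact p = 0.00866, adjusted p = 0.0271). Ifnar1 over Tyk2 was higher by 1.35-fold in the HIP (exact p = 0.00649, adjusted p = 0.0271) and by 1.16-fold in the EC, where it did not pass (exact p = 0.11, adjusted p = 0.138). Without replicate 3 the folds of Ifnar2 over Jak1 were 1.53 and 1.505 and that of Ifnar1 over Tyk2 in the HIP was 1.43 (exact p = 0.00433 in each), while Ifnar1 over Tyk2 in the EC (1.18-fold, exact p = 0.104) and Ifnar1 over Ifnar2 (exact p = 0.416 in the HIP and 0.905 in the EC) again did not pass.

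Il10rb was also set against Il10ra, the ligand-binding chain of the interleukin 10 receptor, which is not triplicated. The log2 ratio averaged 0.64 ± 0.23 in the wt HIP and 1.22 ± 0.40 in the Ts65Dn HIP, a difference of 0.58 (exact permutation p = 0.0152, adjusted p = 0.0303). In the EC it averaged 0.35 ± 0.13 and 0.63 ± 0.33, a difference of 1.21-fold (exact p = 0.0909, adjusted p = 0.13) that did not pass. Without replicate 3 the HIP difference was 1.65-fold (exact p = 0.00433) and the EC difference 1.28-fold (exact p = 0.0303, adjusted p = 0.0433). The calls of the ratios depended on single mice. Without wt replicate 1, 3, 5 or 6, Ifngr2 over Ifngr1 and Il10rb over Il10ra no longer passed in the HIP, nor did Ifngr2 over Ifngr1 without wt replicate 4 (adjusted exact p of 0.0505 to 0.0649). Leaving out Ts65Dn replicate 1, 4, 5 or 6 left only Ifnar2 over Jak1 called in the HIP and none in the EC, with adjusted exact p-values of 0.0519 to 0.0649 for the calls that were lost, and without replicate 2 the EC ratio of Ifnar1 over Tyk2 passed (difference of 0.29 on the log2 scale, adjusted exact p = 0.0433).

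**Figure D4:**
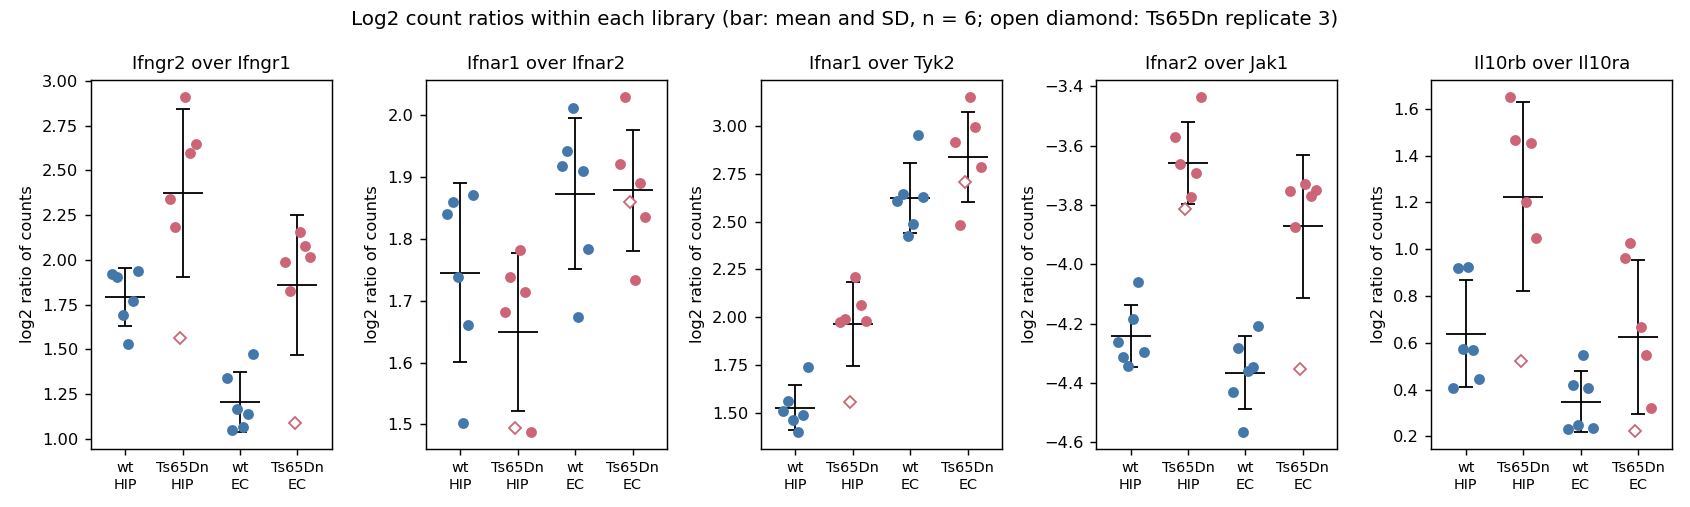
Log2 ratio of counts of 5 gene pairs within each library (y axis) by genotype and region (x axis), with 1 point per library and the mean and SD of 6 libraries as bars. Ifngr2 over Ifngr1 is higher in Ts65Dn in both regions except in the library labelled Ts65Dn replicate 3 (open diamond), Ifnar2 over Jak1 is higher in all 6 Ts65Dn libraries in the HIP and in all but that library in the EC, while Ifnar1 over Ifnar2 overlaps between the genotypes.

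Whether the genotype difference depended on the region was tested with an interaction term and a term for each mouse. No member passed, and of 18109 genes 0 were called (edgeR, adjusted p under 0.05), with 742 genes at an unadjusted p under 0.05. DESeq2 was not run for this term. The member with the smallest unadjusted p was Il10rb, with a log2 difference between the EC and the HIP effects of -0.19 (SE 0.081, unadjusted p = 0.0375, adjusted p = 0.9998), followed by Tyk2 at 0.24 (SE 0.12, unadjusted p = 0.0596). Without replicate 3 these were -0.17 (unadjusted p = 0.0607) and 0.29 (unadjusted p = 0.0242), neither of which passed after adjustment. For Ifnar1 the interaction was 0.0093 (95% interval -0.099 to 0.12), and for Ifngr2 it was 0.085 (-0.075 to 0.25).

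The regions themselves differed in some members, among a background of 61.3% of 17196 genes that differed between the EC and HIP in wt mice. Tyk2 was lower in the wt EC, at 0.503 times its HIP level (0.445 to 0.568, adjusted p = 2.1e-06), and so was Ifngr2, at 0.75 times (0.697 to 0.806, adjusted p = 2.8e-05). Ifnar1 and Jak1 were slightly higher in the EC, by 1.08-fold (adjusted p = 0.0343) and 1.07-fold (adjusted p = 0.0251), and Ifngr1 (1.13-fold, adjusted p = 0.0612), Il10rb, Ifnar2 and Mx2 did not pass. With 1 wt mouse left out at a time, Tyk2 and Ifngr2 were called in all 6 fits, Jak1 in 4 (not without replicate 4 or 5) and Ifnar1 in 2 (only without replicate 1 or 6). In Ts65Dn mice, in which 52.3% of genes differed, Tyk2 and Ifngr2 were again lower in the EC, Il10rb was lower (log2 difference -0.28, adjusted p = 0.0072) and Ifnar1 higher (0.12, adjusted p = 0.0442). The call of Ifnar1 in Ts65Dn was lost in each of the 6 fits that left out a mouse (adjusted p of 0.0554 to 0.147). Without replicate 3, those of Tyk2 (adjusted p = 0.000101), Ifngr2 (adjusted p = 0.00072) and Il10rb (adjusted p = 0.0156) held.

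Markers of other cells moved with these regional differences. All 8 oligodendrocyte markers were lower in the wt EC, with a summed level of 2154 ± 580 CPM against 8627 ± 936 CPM in the HIP (SD, n = 6), and so were all 8 choroid plexus markers, at 21.4 ± 14.7 CPM against 1810 ± 1690 CPM. Mbp and Ttr were the most abundant of these lists, and none of the markers was at 0. Other lists were higher in the wt EC, with 8 of 8 endothelial markers called (343 ± 28.4 against 263 ± 15.9 CPM, led by Flt1), 7 of 8 microglia markers (471 ± 60.5 against 384 ± 17.2 CPM, led by Csf1r), 5 of 8 neuron markers (10747 ± 374 against 8296 ± 362 CPM, led by Snap25) and 4 of 5 blood markers (273 ± 155 against 125 ± 22.2 CPM, led by Hbb-bs), and none of these lists had a marker called lower. Of the 8 astrocyte markers, 4 were higher and 3 lower. The choroid plexus sum ranged from 93.4 to 4931 CPM among the wt HIP libraries. The part of these cell types in the regional differences was not tested.

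The rest of the pathway was followed through 84 genes in 7 lists by role. The 12 ligands, interferons alpha, beta, gamma, epsilon, kappa and lambda, interleukin 10 and interleukin 22, were hardly detected. None passed the filter on low counts in either region, and 8 of them, among them Ifnb1 and the listed interferons alpha and lambda, had no count in any library, which allows up to 3 counts per library, or 0.0711 to 0.13 CPM. The summed level of all 12 reached 0.277 CPM in the library with the most. Of the 3 partner chains, Il10ra had log2 fold changes of 0.029 in the HIP (adjusted p = 0.932) and 0.14 in the EC (adjusted p = 0.489), and Ifnlr1 of 0.99 in the HIP (adjusted p = 0.18), and none passed. Among the other JAK kinases, Jak2 had log2 fold changes of -0.044 and -0.073, and Jak3, a kinase of blood cells, of 0.29 (adjusted p = 0.338) and 0.35 (adjusted p = 0.0784).

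Of the 84 listed genes, the HIP fit tested 65 and the EC fit 66, and with all 12 mice edgeR called 0 of them in either region, where it called 1.04% (HIP) and 2.5% (EC) of all genes in either direction. At an unadjusted p under 0.05, 27 had higher and 1 had lower HIP levels in Ts65Dn, and 15 had higher and 1 had lower EC levels. Over all genes, 2572 of 17355 (HIP) and 3235 of 17049 (EC) were under it in either direction. DESeq2 called 5 of 63 for the HIP and 4 of 62 for the EC, all of them higher in Ts65Dn. Of all genes it called 1.65% (HIP) and 3.25% (EC) higher, and 3.58% and 7.43% in either direction. The genes named next were chosen after their values were seen. Of the STATs and Irf9, 6 of the 7 tested for the HIP and 7 of the 8 tested for the EC had positive log2 fold changes, with medians of 0.16 and 0.12. For Stat2, which joins Irf9 in the complex that type I interferons activate, these were -0.014 and -0.038, and neither passed. Without replicate 3, 7 of the 7 genes of this list tested for the HIP and 7 of the 8 tested for the EC were positive. Of the 6 interferon regulatory factors, 4 were positive in each region with medians of 0.10 and 0.16, and Irf7, which drives production of interferon, had 0.87 (adjusted p = 0.228) and 0.71 (adjusted p = 0.0811). The negative regulators, SOCS and PIAS proteins, phosphatases and Usp18, had medians of 0.014 over 12 tested genes in the HIP and 0.03 over 13 in the EC.

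The interferon-induced targets were the longest list. Of its 40 genes 36 were tested, of which 35 had positive log2 fold changes in the HIP with a median of 0.39, and 31 in the EC with a median of 0.18, beside medians of 0.0047 and 0.0046 over all genes. At an unadjusted p under 0.05, 21 had higher HIP levels and 9 higher EC levels in Ts65Dn and 0 had lower levels, as against 2572 of 17355 and 3235 of 17049 genes in either direction. Isg15, which encodes a ubiquitin-like protein attached to other proteins, averaged 1.36 ± 0.13 CPM in the wt HIP and 2.25 ± 0.749 CPM in the Ts65Dn HIP, and 1.21 ± 0.398 and 2.07 ± 0.504 CPM in the EC (SD, n = 6). Its log2 fold changes of 0.73 (SE 0.20, adjusted p = 0.103) and 0.77 (SE 0.22, adjusted p = 0.0794) did not pass in edgeR and passed in DESeq2 (adjusted p = 0.0284 and 0.0178).

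Usp18, the protease that removes ISG15 and restrains the type I receptor, averaged 0.678 ± 0.0912 CPM in the wt HIP and 1.48 ± 0.788 CPM in the Ts65Dn HIP, a log2 fold change of 1.12 (adjusted p = 0.0939 in edgeR and 0.0199 in DESeq2). In the EC it was 0.20 (adjusted p = 0.76). The other genes that DESeq2 called were Sp100, Ddx58 and Irgm1 in the HIP and Jak3, Irf3 and Irf7 in the EC. Without replicate 3, edgeR called 4 of the 65 genes tested for the HIP and 1 of the 66 tested for the EC, where 1.06% and 1.42% of all genes rose, so that the EC share was near that of all genes. The genes called were Usp18 (1.26, adjusted p = 0.0374), Dtx3l (0.43, adjusted p = 0.0285), Isg15 (0.82, adjusted p = 0.0472) and Sp100 (0.62, adjusted p = 0.0486) in the HIP, and Ifi44 (0.83, adjusted p = 0.0222) in the EC.

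**Figure D5:**
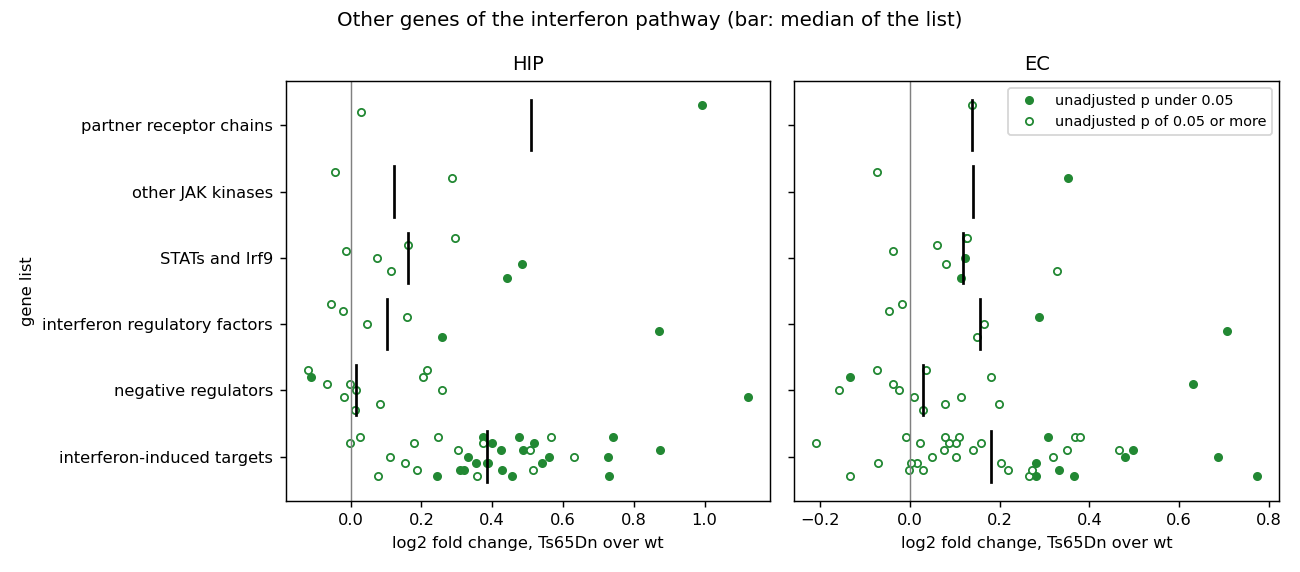
Log2 fold change of Ts65Dn over wt (x axis) of the tested genes of 6 pathway lists (y axis), with 1 point per gene, filled where the unadjusted p was under 0.05, and a bar at the median of each list. Most interferon-induced targets lie to the right of 0, with medians of 0.39 (HIP) and 0.18 (EC), and no gene shown passed in edgeR with all 12 mice after adjustment over all genes.

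The targets differed among the Ts65Dn mice. Their summed level was 394, 385, 406, 423, 412 and 398 CPM in wt HIP replicates 1 to 6, and 577, 593, 412, 371, 470 and 463 CPM in Ts65Dn HIP replicates 1 to 6. Replicates 1 and 2 were the highest, replicates 5 and 6 were also above every wt library, replicate 4 was below every wt library, and replicate 3 was within the wt range. In the EC the sums were 432 to 502 CPM in wt and 552, 497, 448, 453, 507 and 482 CPM in Ts65Dn, so that the genotypes overlapped. Adar, an RNA-editing enzyme, was the most abundant target, at 139 CPM in the wt HIP.

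Markers of meningeal fibroblasts, cells of the covering of the brain, were checked beside these sums. All 8 were detected and had positive log2 fold changes in the HIP, with a median of 0.59 and 0 called in edgeR, while DESeq2 called Col1a1 (0.89, adjusted p = 0.0362). Their summed level was 74.7, 105, 85.7, 81.4, 43.1 and 70.7 CPM in wt HIP replicates 1 to 6 and 184, 172, 110, 44.4, 75.2 and 72.0 CPM in Ts65Dn HIP replicates 1 to 6, with Dcn as the most abundant gene. Without replicate 3, 7 of 8 were positive in the HIP, with a median of 0.50. In the EC 2 of 8 were positive, with a median of -0.11 and 0 called in edgeR, and the sums overlapped, at 49.5 to 157 CPM in wt and 46.98 to 116 CPM in Ts65Dn. In the HIP, Ts65Dn replicates 1 and 2, which had the largest sums, also had the highest levels of Il10rb, Mx1 and Mx2 and of the targets among HIP libraries. Among the wt HIP libraries, replicate 2 had the highest sum of these markers, the highest level of Il10rb (9.89 CPM) and the lowest sum of the targets. Among the Ts65Dn HIP libraries, replicate 4 had the lowest sum of the markers (44.4 CPM) and of the targets (371 CPM). Ts65Dn replicates 5 and 6, with marker sums within the wt range, had target sums above every wt library. The part of meningeal cells in the differences of the members and the targets was not tested.

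Choroid plexus markers, led by Ttr, varied in the HIP of both genotypes. Their sums were 1097, 4931, 1509, 2289, 93.4 and 939 CPM in wt replicates 1 to 6 and 5176, 2427, 3116, 56.2, 1519 and 122 CPM in Ts65Dn replicates 1 to 6. All 8 had positive log2 fold changes in the HIP, with a median of 0.34, and 0.18 without replicate 3, none of the 8 was called, and their part in the differences of the members and the targets was not tested. Microglia markers, from cells that carry interferon receptors, summed to 366 to 415 CPM in the wt HIP and 340 to 397 CPM in the Ts65Dn HIP. Of the 8, P2ry12, a purinergic receptor of resting microglia, fell by 0.27 on the log2 scale in the HIP (SE 0.057, adjusted p = 0.0422) and by 0.45 in the EC (SE 0.091, adjusted p = 0.0226), and the other 7 did not pass. Of the endothelial, oligodendrocyte and blood markers, none was called in either region, and all 5 blood markers had negative log2 fold changes, with medians of -0.39 (HIP) and -0.73 (EC). With all mice, astrocyte and neuron markers were not called in edgeR either, with HIP medians of -0.10 and 0.010 and EC medians of -0.17 and -0.011. Without replicate 3, edgeR called 1 of the 8 astrocyte markers lower in the EC, with a median of -0.23. DESeq2 with all mice called Slc1a3 lower in both regions and Slc1a2, Gja1 and Syt1 lower in the EC.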

How the data were processed

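RNA was extracted from the HIP and EC of 6 wt and 6 Ts65Dn male mice, and 24 stranded polyA libraries were sequenced. The library kit is described differently in the labels and the methods. The authors aligned reads to mouse GRCm38 with Hisat2, counted them per gene with HTSeq and deposited counts that are not normalized. The strand setting of the counting is not given in the sources used here. The labels name mm10 as the build, with bcl2fastq 2.17.1.14 and DESeq2 as tools. Tables of the authors' own comparisons, which hold DESeq2 mean normalized counts, fold changes and p-values and FCROS ratios, scores and p-values, were not used.

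Gene names and coordinates were taken from GENCODE M21, which matched 99.6% of identifiers and left 241 unmatched. Genes were kept by filterByExpr, scaled by TMM and tested with edgeR 4.0.16 (quasi-likelihood, Benjamini-Hochberg adjusted p under 0.05) over all kept genes in R 4.3.3. Genotypes were compared within each region with 6 against 6 mice. The regions, and the interaction, were compared with a term for each mouse, since titles give 1 mouse number to a HIP and an EC library. The deviations of the 2 libraries of a mouse correlated at 0.178 to 0.426, and 12 of 12 HIP libraries correlated best with the EC library of their own mouse. Ratios of counts were tested by two-sided exact permutation (scipy 1.17.1) and adjusted over 10 ratios. CPM were scaled over all libraries, and FPKM divide CPM by exon length in kilobases. Scripts were tested on simulated data.

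The alternatives were DESeq2 1.42.0, its size factors within edgeR, other filters on low counts, a replicate block, no mouse term, another added count, and leaving out each mouse. All members were named. From the pathway lists the rule was to name genes past the threshold, up to 4 per list, and none passed in edgeR with all 12 mice. The members, gene lists and marker lists were chosen with earlier results of these data known. The libraries are of separate mice, and no pair held identical counts. Intervals cover the spread between mice, and the limit of 3 counts covers counting error only.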

Additional observations from a re-analysis of the deposited data

Results flagged for a closer look

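Among 56 groups of 6 libraries checked for a library far from the others, 5 were picked out, where chance alone picks out about 1 in 20, and all 5 concern the library labelled Ts65Dn replicate 3. Its Ifnar1 level was 43.7 CPM in the HIP, against 63.96 to 67.5 CPM in the other 5 Ts65Dn libraries, and 47.3 CPM in the EC, against 68.2 to 73.4 CPM. Its log2 ratio of Ifngr2 over Ifngr1 in the EC was 1.09, against 1.82 to 2.16 in the others. The log2 ratio of Ifnar1 over Tyk2 in the HIP was 1.56 in this library, against 1.98 to 2.21, and that of Ifnar2 over Jak1 in the EC was -4.35, against -3.87 to -3.73. The wt libraries ranged from 38.5 to 45.9 CPM of Ifnar1 in the HIP and from 43.0 to 49.4 CPM in the EC.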

How the results depend on the processing

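The replicate numbers that wt and Ts65Dn mice share do not pair them, as deviations of same-numbered libraries correlated at -0.198 to 0.153 (HIP) and -0.0812 to 0.166 (EC). With a replicate block, 1 member (Ifnar2) passed in the HIP and 0 passed in the EC, against 29 and 36 of all genes, with log2 fold changes of 0.50 and 0.51 for Ifnar1, 0.60 and 0.50 for Ifnar2, 0.63 and 0.71 for Ifngr2 and 0.60 and 0.41 for Il10rb. The ratios in the same block gave 0 calls in the HIP and 0 in the EC, where 6 pairs cannot give an exact p below 0.03125 before adjustment. DESeq2 called 589 HIP and 1098 EC genes against 181 and 426 by edgeR, and without the filter on low counts edgeR called 135 and 275.

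Between regions, 2 members passed in wt mice without the filter on low counts in place of 4, where 32.5% of all genes passed in place of 61.3%. In Ts65Dn mice with no mouse term, 1 member passed in place of 4, where 48.2% of all genes passed in place of 52.3%. Without the filter, 37 of 36766 genes had an interaction, none of them a member, and that of Jak1 was 0.0092.

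With each mouse left out in turn, 1 to 4 members passed in the HIP, 2 to 4 members in the EC, and 2 to 4 between regions in wt mice, and 1 to 4 HIP ratios and 0 to 3 EC ratios passed. Values near 0 changed sign in some of these fits. The log2 fold change of Jak1 in the EC ran from -0.011 to 0.033, the difference in log2 ratio of Ifnar1 over Ifnar2 in the EC from -0.035 to 0.034, and the regional difference of Ifnar2 in wt mice from -0.054 to 0.0050. Interactions ran from -0.012 to 0.028 for Ifnar1, from -0.32 to 0.038 for Mx2, from -0.050 to 0.084 for Ifngr1 and from -0.038 to 0.021 for Jak1. None of these passed, and the cause was not tested. At 2 to 48 counts per library, depth limits what can be said of Mx1 and Mx2.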
